A study of Mus musculus with 4 samples.

Results

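The genes described here are 10 markers of endoplasmic reticulum (ER) stress: Hspa5, Pdia4, Dnajb9, Xbp1, Herpud1, Atf4, Ddit3, Trib3, Asns and Chac1. They were taken as the probe sets whose single annotated gene symbol was one of these names, which gave 20 of the 22690 probe sets on the array and 10 of 12393 genes. Their RNA was measured in hair follicle stem cells of dorsal skin, sorted on CD34, integrin α6 and YFP, a fluorescent protein. The mice were females on a CD1/C57BL/6 background, aged about postnatal day 60. Conditional knockouts (cKO) of Tbx1, a T-box transcription factor gene, were set against wild type (WT) mice on 2 Affymetrix arrays each. The labels do not name the driver of the deletion, what the YFP marks or how many animals an array stands for, so p-values reflect only array-to-array spread, possibly technical. Each genotype has 1 array in set 2 and 1 in set 1, and another label calls the cells of set 2 activated and those of set 1 quiescent. The treatment given for all 4 arrays is wax depilation, with harvest 48 h later, and depilation is known to start hair growth, so the state of set 1 is unsettled and the sets are named by number.

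When unfolded proteins build up in the ER, 3 sensors of its membrane respond. The kinase PERK phosphorylates the translation factor eIF2α, which lowers protein synthesis while favouring translation of ATF4, and amino acid shortage reaches ATF4 through another kinase. The nuclease IRE1 splices Xbp1 mRNA into the form that encodes an active transcription factor, and ATF6 is cut to release one. ATF6 and XBP1 induce chaperones and the machinery of ER-associated degradation, and ATF4 with CHOP, the product of Ddit3, induces genes of amino acid supply and, under lasting stress, of cell death. Much of this control lies in translation, splicing and cleavage, which an array of RNA levels does not read.

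All 10 bulge stem cell markers, Cd34, Itga6, Krt15 and Lhx2 among them, lay above the limit for dim genes on every array. That limit is a log2 intensity of 5.40, percentile 40 of all probe sets. Tbx1 had log2 values of 9.54 and 8.88 in cKO, against 10.53 and 10.37 in WT, though the labels do not say whether its probes lie in the deleted part. The cKO set 1 array had weaker signal at the 5′ end of the added Dap control, with a 3′ minus 5′ difference of 2.95 against 1.74 to 1.82 on the other arrays. The cells' own transcripts went the same way, with 0.68 against 0.24 to 0.34 for Gapdh and 1.68 against 1.09 to 1.18 for Actb. The WT set 2 array read 12.35 for the nuclear RNA Malat1 against 9.80 to 10.56 on the others, and its summed signal over 5 measured markers of suprabasal epidermis was 4449 against 13720 to 16425. Summed over 10 endothelial markers, the signal was 237 and 228 in cKO and 864 and 615 in WT, with 9 markers below the limit on each cKO array and 5 and 6 on the WT arrays. Of these 10, 2 lay above the limit on average. Among them Plvap had log2 values of 4.29 and 4.19 in cKO, against 8.29 and 7.78 in WT. Plvap was itself called lower in cKO (difference -3.79, limma adjusted p = 0.0065), so the sum partly reflects this gene. Summed signals of fibroblast markers (271 to 348) and immune markers (206 to 288) were low on every array. Fewer cells of a type and less RNA per cell cannot be told apart in such bulk samples. The part of these differences in the results below was not tested.

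Of the 10 genes, 9 lay above the limit for dim genes, and 0 of them passed limma's test of cKO against WT at an adjusted p under 0.05. At an unadjusted p under 0.05 the count was also 0, where 14.2% of the 8031 genes tested reached that level. The smallest adjusted p among them was 0.504, for Xbp1. Over all genes tested, limma called 0.0249% higher and 0.0623% lower in cKO, 7 genes in all, and a count of 0 among 9 is near that share. The median cKO minus WT difference of the 9 genes was 0.13 on the log2 scale, 0.11 in set 1 and 0.16 in set 2, against 0.029 over all genes tested. The median size of the difference, regardless of sign, was 0.17 for these genes and 0.20 over all genes. The 95% interval of the difference lay inside 2-fold either way for 8 of the 9 genes and for 82.7% of all genes. Within both sets the difference stayed under 1.5-fold for 8 of the 9 genes and for 76.8% of all genes. At least 1.5-fold higher in cKO within both sets were 0 of the 9 and 3.04% of all genes, and at least 1.5-fold lower 0 and 1.64%.

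**Figure D1:**
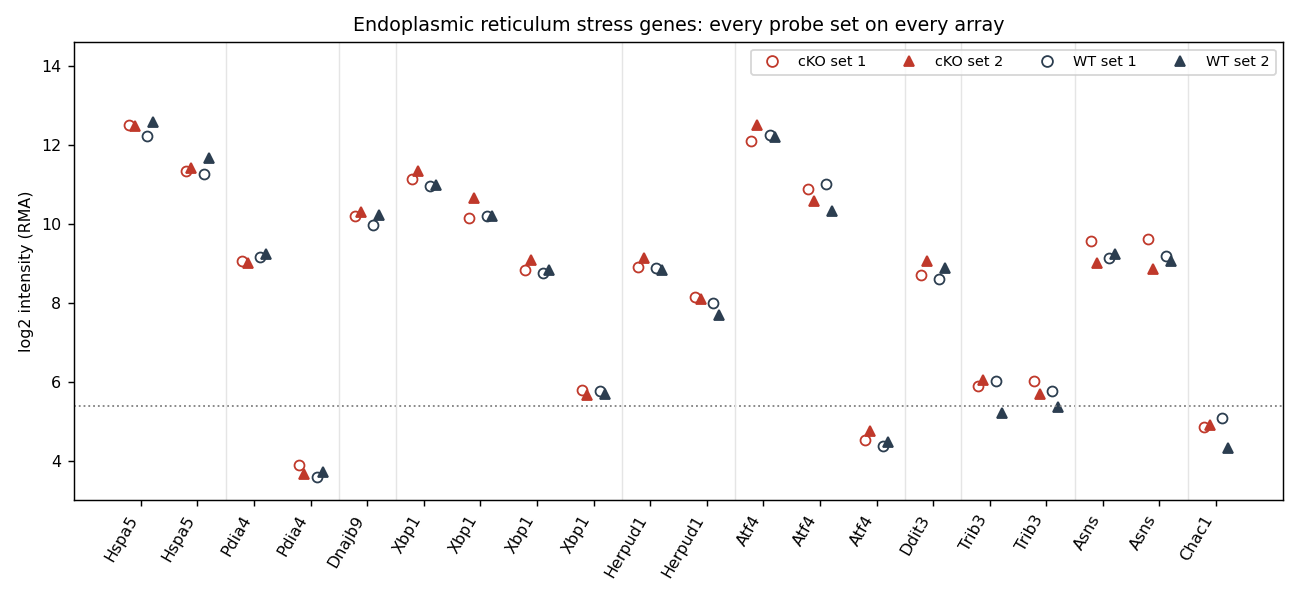
Log2 intensity (RMA) of each of the 20 probe sets on each array, with cKO left of WT for each probe set, open circles for set 1 and filled triangles for set 2. The dotted line is the limit for dim genes (5.40). Chac1 and 1 probe set each of Pdia4 and Atf4 lie below it on all 4 arrays.

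The promoters of 4 of these genes are shown because they hold the letters through which the factors of the pathway are known to act. Each is the 250 bases before the RefSeq transcription start in GRCm38.p6, read 5′ to 3′ on the strand of the gene, with motif matches in capitals, including those read on the opposite strand (the CARE of Herpud1 and of Chac1). In Hspa5 (chr2:34771840-34772089, plus strand) they mark the ER stress element, ERSE, of ATF6 and XBP1. In Herpud1 (chr8:94386179-94386428, plus strand) they mark a C/EBP-ATF response element, CARE, of ATF4 and, nearer to the start, the related ERSE-II. In Asns (chr6:7693210-7693459, minus strand) and Chac1 (chr2:119350992-119351241, plus strand) they mark a CARE.
Hspa5: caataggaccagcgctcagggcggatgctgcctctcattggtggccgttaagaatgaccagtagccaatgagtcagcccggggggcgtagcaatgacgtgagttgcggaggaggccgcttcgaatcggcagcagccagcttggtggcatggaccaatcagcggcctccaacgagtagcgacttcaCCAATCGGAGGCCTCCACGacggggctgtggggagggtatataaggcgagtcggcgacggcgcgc
Herpud1: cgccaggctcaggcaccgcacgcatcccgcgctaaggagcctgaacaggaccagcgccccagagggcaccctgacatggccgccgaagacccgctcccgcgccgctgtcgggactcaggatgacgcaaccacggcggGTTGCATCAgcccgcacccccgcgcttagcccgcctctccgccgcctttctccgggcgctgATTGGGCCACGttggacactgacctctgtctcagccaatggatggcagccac
Asns: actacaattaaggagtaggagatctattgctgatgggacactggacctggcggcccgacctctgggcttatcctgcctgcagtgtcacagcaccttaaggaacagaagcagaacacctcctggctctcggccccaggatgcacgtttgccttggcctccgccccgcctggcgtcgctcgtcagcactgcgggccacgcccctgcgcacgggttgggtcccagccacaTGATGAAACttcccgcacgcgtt
Chac1: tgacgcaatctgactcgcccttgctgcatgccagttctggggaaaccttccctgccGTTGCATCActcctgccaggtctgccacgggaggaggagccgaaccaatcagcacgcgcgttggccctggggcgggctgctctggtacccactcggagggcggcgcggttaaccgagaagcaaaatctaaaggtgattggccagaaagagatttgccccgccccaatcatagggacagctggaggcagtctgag

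The motifs were searched on both strands in windows of 300 bases, from 250 before to 50 after the start, as CCAAT, 9 bases of any kind and CCACG for ERSE, as ATTGG, any base and CCACG for ERSE-II, as TGACGTGG for the XBP1-bound element UPRE and as TGATGNAAN for CARE. Promoters were found for all 10 genes. An ERSE was present in 0.119% of 32851 mouse promoters and in 1 of the 10 (Hspa5), and an ERSE-II in 0.0365% and in 1 of the 10 (Herpud1). A CARE was present in 3.95% of promoters and in 4 of the 10 (Herpud1, Trib3, Asns and Chac1), where the Trib3 match lies just after the start. UPRE was present in 0.676% of promoters and in 0 of the 10. A match is a run of letters and does not show binding, and ERSE and ERSE-II matches both include a CCAAT box or its complement, which 37.4% of promoters hold. The cKO minus WT differences of the tested genes with a CARE were 0.17 for Herpud1, 0.36 for Trib3 and 0.094 for Asns, and none passed the test.

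Hspa5, Pdia4 and Dnajb9 encode chaperones of the ER lumen. Hspa5 encodes BiP, the abundant chaperone that holds the 3 sensors inactive and is released from them under stress. Its brighter probe set had log2 values of 12.50 and 12.48 in cKO, against 12.22 and 12.59 in WT. The cKO arrays lay between the WT arrays, and the difference was 0.087 (SE 0.19, 95% interval -0.37 to 0.54, limma adjusted p = 0.866), which puts cKO at 1.06 times WT with bounds of 0.774 and 1.46. The other Hspa5 probe set had log2 values of 11.35 and 11.41 in cKO, against 11.26 and 11.67 in WT, again with overlapping groups, and its difference of -0.078 had the opposite sign. On both probe sets the WT set 2 array was the highest.

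Pdia4, a disulfide isomerase that helps to pair cysteines in folding proteins, was the one gene of the 9 with lower values in cKO within both sets. It had log2 values of 9.05 and 9.00 in cKO, against 9.16 and 9.23 in WT. The groups did not overlap, but the gap was small, at -0.17 (SE 0.15, 95% interval -0.55 to 0.21, limma adjusted p = 0.664). Both WT arrays of 19.9% of all genes tested lay above both cKO arrays, so this is a common arrangement here. Dnajb9, the co-chaperone ERdj4 and an XBP1 target, had log2 values of 10.21 and 10.30 in cKO, against 9.96 and 10.22 in WT. The groups overlapped, and the difference was 0.17 (SE 0.17, limma adjusted p = 0.706).

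Xbp1 and Herpud1 stand for the IRE1 branch and ER-associated degradation, and on the brightest probe set of both genes each cKO array lay above each WT array, as in 26.7% of all genes tested. The brightest Xbp1 probe set had log2 values of 11.15 and 11.33 in cKO, against 10.96 and 10.98 in WT. The cKO set 2 array was the highest, and the difference of 0.27 (SE 0.16, 95% interval -0.13 to 0.67, limma adjusted p = 0.504) was 0.19 in set 1 and 0.35 in set 2. The 3 other Xbp1 probe sets gave 0.20, 0.18 and 0.0058. The groups overlapped on the first of these, with differences of -0.056 in set 1 and 0.45 in set 2, and on the last, with 0.033 in set 1 and -0.021 in set 2, and the cKO set 2 array was the highest on 3 of the 4 probe sets. Probe positions were not used here, so these values are levels of Xbp1 RNA and no measure of its splicing.

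Herpud1 encodes a membrane protein of the ER that helps to assemble the degradation complex. It had log2 values of 8.91 and 9.13 in cKO, against 8.87 and 8.83 in WT, a difference of 0.17 (SE 0.16, limma adjusted p = 0.694). Its dimmer probe set had log2 values of 8.14 and 8.10 in cKO, against 7.99 and 7.69 in WT. Both probe sets therefore had higher values in cKO, by 0.037 and 0.14 in set 1 and by 0.29 and 0.42 in set 2, and the brighter probe set, which was the one tested, did not pass.

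Atf4, Ddit3 and Trib3 form the PERK branch. Atf4 had log2 values of 12.11 and 12.50 in cKO, against 12.26 and 12.19 in WT. The cKO arrays lay on either side of both WT arrays, and the difference of 0.084 (SE 0.19, 95% interval -0.39 to 0.56, limma adjusted p = 0.877) was -0.15 in set 1 and 0.32 in set 2. A second bright Atf4 probe set gave 0.072, and the third was dim on all 4 arrays. Ddit3, which encodes the pro-apoptotic factor CHOP, had log2 values of 8.71 and 9.05 in cKO, against 8.60 and 8.89 in WT. Its difference was nearly equal in both sets, at 0.11 and 0.16, and small, with a mean of 0.13 (SE 0.20, limma adjusted p = 0.803).

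Trib3 encodes a pseudokinase that is induced by ATF4 and CHOP and damps their action. Its brighter probe set had log2 values of 5.90 and 6.06 in cKO, against 6.02 and 5.22 in WT. The WT set 2 array was the low one and lay below the limit for dim genes, and the other 3 arrays lay within 0.16 of each other. The difference of 0.36 (SE 0.28, 95% interval -0.33 to 1.05, limma adjusted p = 0.608) was the largest of the 9 and was -0.12 in set 1 and 0.84 in set 2. Without the WT set 2 array it was -0.037. The other Trib3 probe set had log2 values of 6.03 and 5.70 in cKO, against 5.76 and 5.36 in WT, with differences of 0.27 and 0.34, so the probe sets disagree on set 1.

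Asns and Chac1 are targets of ATF4 in amino acid and glutathione metabolism. Asns, the asparagine synthetase gene, had log2 values of 9.56 and 9.00 in cKO, against 9.13 and 9.24 in WT. The cKO set 1 array was the highest and the cKO set 2 array the lowest, so the difference of 0.43 in set 1 and -0.24 in set 2 left a mean of 0.094 (SE 0.23, limma adjusted p = 0.883). The second Asns probe set had the same order within each set, with 0.45 and -0.20. Chac1, which encodes an enzyme that degrades glutathione, had log2 values of 4.85 and 4.92 in cKO, against 5.09 and 4.34 in WT. Its single probe set lay below the limit on all 4 arrays, so it entered no test and no fold is given. The direction of the difference differed between the sets for 4 of the 9 tested genes (Hspa5, Atf4, Trib3 and Asns) and for 36.0% of all genes, and whether the sets differ could not be tested with 1 array per genotype and set.

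**Figure D2:**
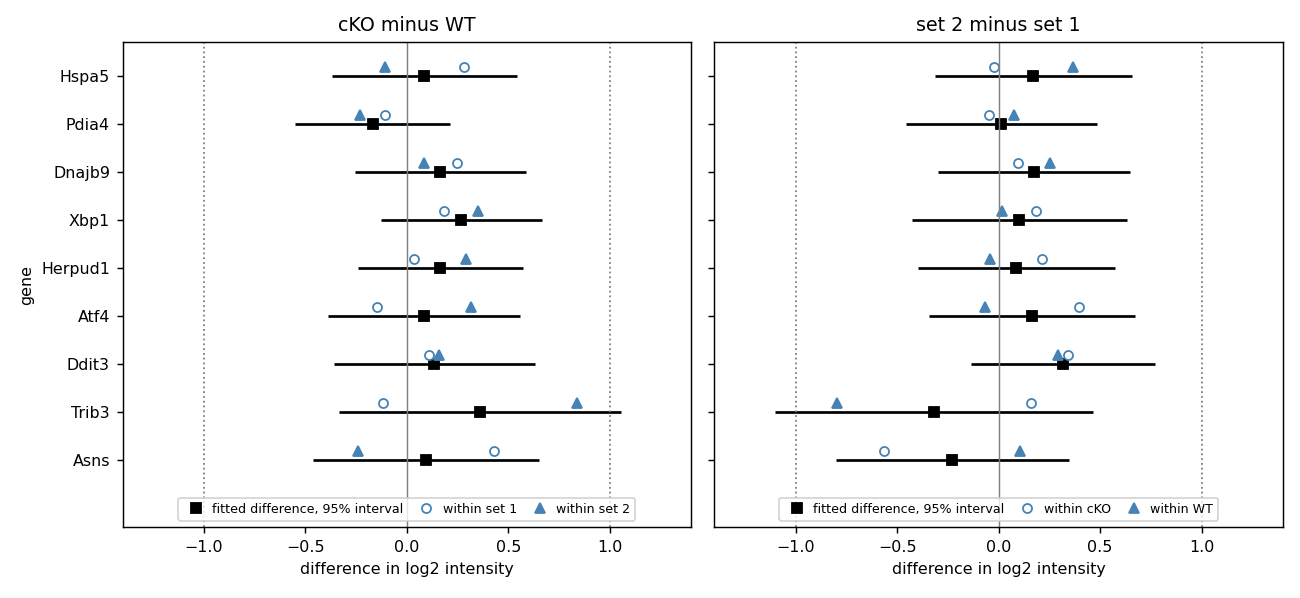
Difference in log2 intensity for the 9 genes above the limit, cKO minus WT on the left and set 2 minus set 1 on the right. Squares are fitted differences with limma's 95% interval as a line, circles and triangles are the differences within each set or genotype, and dotted lines mark 2-fold. Every interval crosses 0, and the Trib3 interval crosses a dotted line in both panels.

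The wider response was read from 5 lists of pathway genes that were chosen with earlier results of these data known. The chaperone list includes the members Hspa5, Pdia4 and Dnajb9, and the degradation list includes Xbp1 and Herpud1. The list of ATF4 and CHOP targets includes Atf4, Ddit3, Trib3, Asns and Chac1. The list of ER chaperones and disulfide isomerases held 20 genes, 20 of them tested, of which 0 passed the test in either direction and the median difference was -0.060. Leaving out each array in turn moved this median between -0.10 and 0.0033, the highest without the cKO set 1 array. Of these, 4 had higher and 8 lower values in cKO within both sets, against 35.8% and 27.9% of all genes. Without the members the counts were 3 and 7 of 17 tested genes, and the median was -0.067. Hsp90b1, which encodes the ER chaperone GRP94, had log2 values of 11.08 and 11.17 in cKO, against 11.44 and 12.01 in WT. It had the largest difference of the list, at -0.60 (SE 0.23, limma adjusted p = 0.332), and a second probe set gave -1.06. On that second probe set the groups overlapped, with 9.07 and 10.43 in cKO, against 10.30 and 11.32 in WT. Its set 2 minus set 1 difference, 1.19, was larger in size than its genotype difference. Dnajc3, Creld2 and P4hb differed by -0.27, -0.23 and -0.21, and other Dnajc3 probe sets above the limit gave values from -0.078 to 0.13.

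The list of degradation and translocation genes held 25 names, of which 22 were tested and 0 passed, with a median of 0.055 that ran from 0.041 to 0.066 with 1 array left out. Os9 and Selenos, which act in the degradation complex, differed by 0.39 (SE 0.16) and 0.35 with limma adjusted p of 0.356 and 0.457. Edem1, which marks misfolded glycoproteins for degradation, differed by 0.21, and Srprb, a subunit of the signal recognition particle receptor, by -0.26. Other probe sets gave 0.18 for Os9, 0.16 and 0.24 for Selenos, 0.13 for Edem1, and 0.065 and -0.47 for Srprb. The other Os9 probe set gave -0.10 in set 1. In this list 7 genes had each cKO array above each WT array and 2 had each below, against 26.7% and 19.9% of all genes tested. Without Xbp1 and Herpud1 the counts were 5 and 2 of 20 tested genes, and the median was 0.036. The list of sensors and their regulators had 11 tested genes of 15, 0 of which passed, and a median of 0.091. With cKO set 1 left out that median was 4.1e-05, with cKO set 2 left out 0.17, with WT set 1 left out 0.056 and with WT set 2 left out 0.18. Creb3l2, an ATF6 relative anchored in the ER membrane, had log2 values of 7.89 and 7.78 in cKO, against 7.42 and 7.31 in WT. Its difference was alike in both sets, at 0.48 in each, and did not pass (SE 0.16, limma adjusted p = 0.301), and a dimmer probe set gave 0.098. Creb3 differed by 0.33 and Eif2ak3, which encodes PERK, by 0.28, with limma adjusted p of 0.467 and 0.627, and Ppp1r15b, which encodes a subunit of an eIF2α phosphatase, by 0.18.

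**Figure D3:**
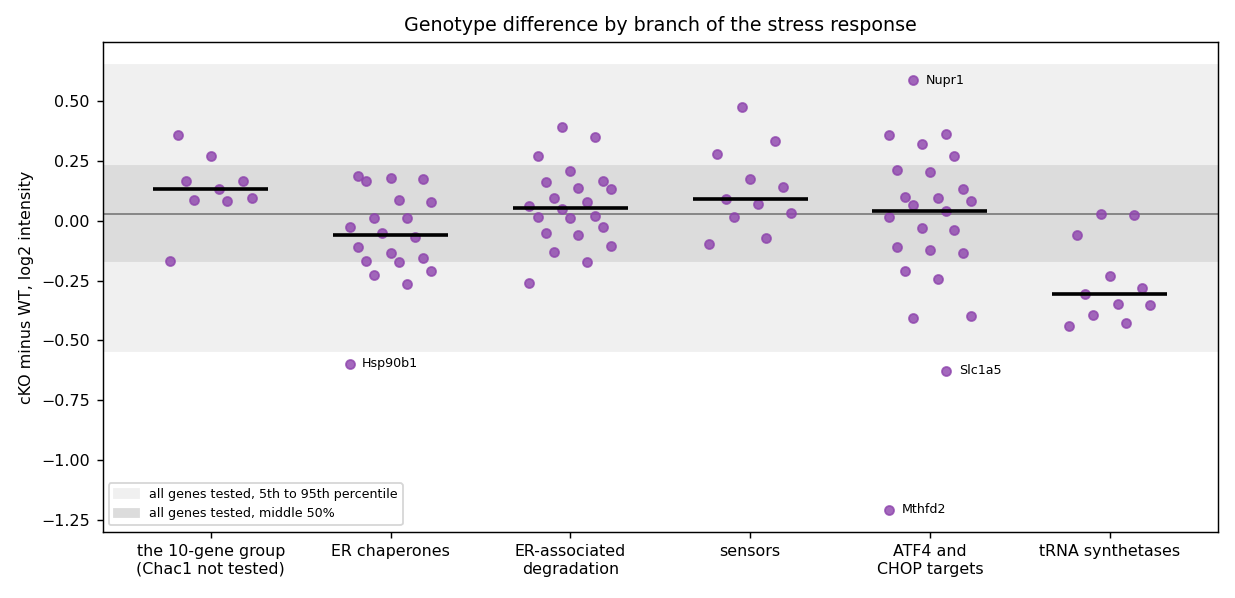
Fitted cKO minus WT difference in log2 intensity of each tested gene (points), with the median of each list as a bar. The shaded bands give the middle 50% and the 5th to 95th percentile of all genes tested (-0.55 to 0.65), and genes beyond 0.55 either way are named. Members that belong to a list are drawn in that list too. The tRNA synthetases have the lowest median, -0.31.

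The list of ATF4 and CHOP targets had 25 tested genes of 31, 0 of which passed, with a median of 0.039 against 0.029 over all genes. The median was -0.12 in set 1 and 0.073 in set 2, and leaving out cKO set 1 gave -0.015, while leaving out cKO set 2 gave 0.014. Without the members in this list, the median over 21 tested genes was -0.032. Mthfd2, a mitochondrial enzyme of the folate cycle, had log2 values of 7.43 and 7.54 in cKO, against 8.73 and 8.66 in WT. The groups were far apart relative to their spread, with means of 7.49 ± 0.080 and 8.69 ± 0.047 (SD, n = 2), and the difference of -1.21 (SE 0.16, 95% interval -1.59 to -0.82) put cKO at 0.433 times WT. Its limma adjusted p was 0.0857, and 0.0305 with the set as a block, where 1.03% of all genes passed and it was the one gene of this list below the threshold. A second Mthfd2 probe set gave -0.60 in set 1 and -0.52 in set 2.

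Slc1a5, a glutamine transporter gene, had log2 values of 5.98 and 5.56 in cKO, against 6.66 and 6.13 in WT, a difference of -0.63 (SE 0.25, limma adjusted p = 0.344). The large amino acid transporter gene Slc7a5 differed by -0.41, which was -0.72 in set 1 and -0.093 in set 2. Nupr1, a stress-induced chromatin protein gene, had log2 values of 9.80 and 10.64 in cKO, against 9.85 and 9.42 in WT. It had the largest positive difference of the list, 0.59 (SE 0.31, limma adjusted p = 0.458), and the value came from set 2, with -0.047 in set 1 and 1.22 in set 2.

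The aminoacyl-tRNA synthetases, which load amino acids onto tRNA and many of which ATF4 induces, had the lowest median of the 5 lists. Of 12 listed genes 11 were tested and 0 passed, and the median difference was -0.31, -0.27 in set 1 and -0.24 in set 2. Both cKO arrays lay below both WT arrays for 8 of the 11 genes, against 19.9% of all genes, and for 0 of the 11 did they lie above. Aars had log2 values of 8.28 and 7.98 in cKO, against 8.75 and 8.39 in WT (difference -0.44, limma adjusted p = 0.409). Gars had log2 values of 9.77 and 9.77 in cKO, against 10.39 and 10.01 in WT (difference -0.43, limma adjusted p = 0.384). Eprs differed by -0.40 and Yars by -0.35, while Iars (-0.061), Nars and Sars had values close to 0 on their brightest probe sets. A dimmer Iars probe set gave -0.23, with -0.45 in set 1 and -0.019 in set 2. Other probe sets gave -0.59 for Aars, and -0.42 and -0.44 for Eprs. Leaving out each array in turn moved the median between -0.29 and -0.24, and it was -0.28 when cKO of set 2 was set against WT of set 1 alone, which mixes genotype with set. The summed endothelial signal, to which Plvap contributes, was also lower in cKO (237 and 228, against 864 and 615 in WT). The part of this signal in these differences was not tested. Of the 8 synthetase genes with a RefSeq promoter window, 5 (Aars, Gars, Iars, Tars and Yars) held a CARE, against 3.95% of mouse promoters. The median difference of these 5 was -0.35, and that of the 2 tested synthetase genes without a CARE was -0.19. Lower values in cKO within both sets were found for 4 of the 5. Among ATF4 and CHOP targets the median was 0.24 for the 6 tested genes with a CARE and -0.032 for the 15 without. Of those 6, which include the members Trib3 and Asns, 1 had higher values in cKO within both sets and 0 had lower. Whether a CARE goes with the direction of the difference was not tested.

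**Figure D4:**
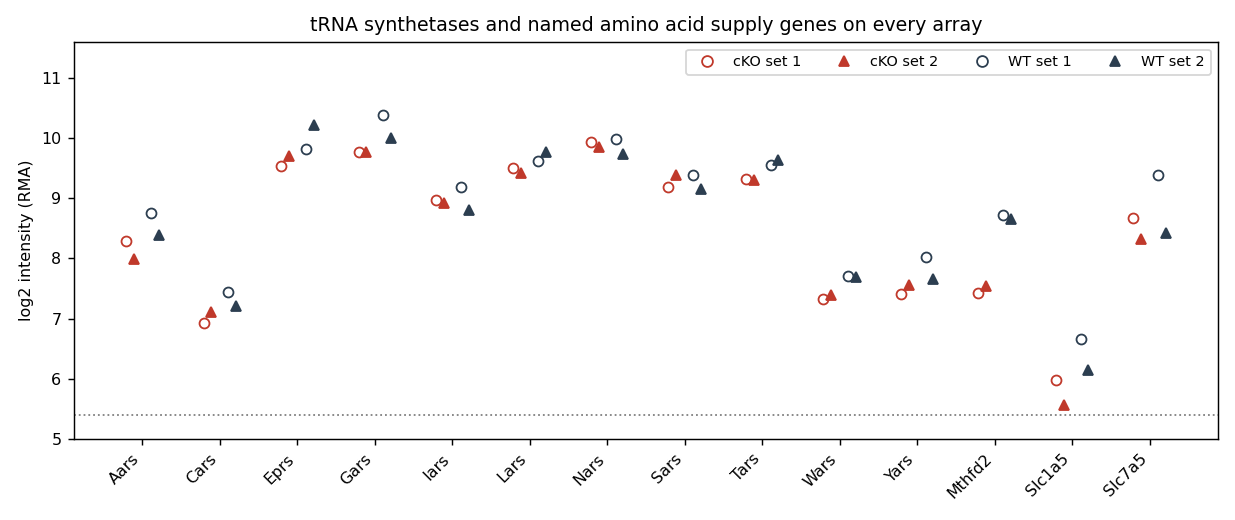
Log2 intensity (RMA) of the 11 tested tRNA synthetase genes and of Mthfd2, Slc1a5 and Slc7a5 on each array, drawn as in the plot of all probe sets. Mthfd2 reads 7.43 and 7.54 in cKO and 8.73 and 8.66 in WT, the widest gap in the plot.

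Set 2 was compared with set 1 because the labels call its cells activated and those of set 1 quiescent. limma called 0 of the 9 genes, and 0.00% of all genes tested in either direction. At an unadjusted p under 0.05 the counts were 0 of 9 and 2.86% of all genes. The median set 2 minus set 1 difference was 0.10, which was 0.16 within cKO and 0.075 within WT, against -0.051 over all genes. The 95% interval lay inside 2-fold for 8 of the 9 genes and for 81.8% of all genes. With the genotype as a block 0 of the 9 passed, against 0.0125% of all genes. Within both genotypes 3 of the 9 genes (Ddit3, Dnajb9 and Xbp1) had higher values in set 2, against 19.8% of all genes, and 0 differed by at least 1.5-fold one way, against 1.38%. Both set 2 arrays lay below both set 1 arrays for 0 of the 9 and for 19.5% of all genes, and 8 of the 9 stayed within 1.5-fold in both genotypes, as did 84.1%. With the mean of each gene's probe sets in place of the brightest, the median was -0.025.

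Ddit3 had the largest positive set difference of the 9 and the steadiest. It read 9.05 in cKO and 8.89 in WT in set 2, against 8.71 in cKO and 8.60 in WT in set 1. Both set 2 arrays lay above both set 1 arrays, as for 11.1% of all genes tested, and the difference was 0.34 within cKO and 0.29 within WT (mean 0.32, SE 0.18, 95% interval -0.14 to 0.77, limma adjusted p = 0.999). Dnajb9 was the other member with higher values in set 2 on every array, by 0.095 within cKO and 0.25 within WT, and the lower of its set 2 values (10.22) was close to the higher of its set 1 values (10.21). Hspa5 differed by -0.021 within cKO and 0.36 within WT. On their brighter probe sets Trib3 differed by 0.16 within cKO and -0.80 within WT, and Asns by -0.56 within cKO and 0.11 within WT. These values moved in 1 genotype more than in the other, a difference that could not be tested. The other Trib3 probe set gave nearly equal values, -0.33 within cKO and -0.40 within WT. The other Asns probe set gave -0.76 within cKO and -0.11 within WT. Among the other pathway genes, Cth, which makes cysteine, had the largest set difference at -0.86 (-0.88 within cKO and -0.85 within WT, limma adjusted p = 0.999). It was followed by Slc7a5 at -0.66 and Sec62, a translocation subunit gene, at 0.64. Slc7a5 differed by -0.34 within cKO and -0.97 within WT, and Sec62 by 0.22 within cKO and 1.07 within WT.

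Over the 4 arrays the profiles of the 9 genes, each centred on its own mean, were most alike for Xbp1 and Herpud1, which differed by a root mean square of 0.057 on the log2 scale, and for Hspa5 and Dnajb9, at 0.069. Atf4 lay nearest to Herpud1 (0.077) and Ddit3 nearest to Dnajb9 (0.090). Trib3 and Asns stood farthest from the rest, with 0.28 and 0.21 to their nearest member, and they also had the widest ranges over the arrays, 0.84 and 0.56. The ranges of the other 7 genes ran from 0.23 for Pdia4 to 0.45 for Ddit3. With 4 arrays this likeness describes these samples and no more.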

How the data were processed

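RNA of sorted cells was extracted with Trizol and labelled as biotinylated cRNA for Affymetrix arrays (from the labels' protocols). Linear intensity values of 22690 probe sets were deposited by the authors. RMA is named in the submitters' processing notes, with version and settings not given in the sources used here. log2 was computed from the deposited values. RMA gives no detection call, and no scan batch was at hand.

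Gene symbols come from GEO's platform annotation. The brightest probe set on average stood for its gene, genes below percentile 40 of all probe sets (log2 5.40) and Xist and Y-linked genes were dropped, and limma 3.58.1 (R 4.3.3) was run on the 8031 others (lmFit, eBayes, 4 arrays, no covariate, Benjamini-Hochberg, threshold 0.05), for cKO against WT and for set 2 against set 1. Intervals are limma's at 95%, unadjusted. Values per probe set other than the brightest carry no test. Members and lists were chosen with earlier results of these data known. Named were the 10 members, Tbx1, and of each list the genes that passed or had the largest differences (up to 4 for genotype, 3 for set); some of these are not printed. Markers of the sorted and other cell types were listed too, and of these the bulge, suprabasal, endothelial, fibroblast and immune values are printed with the arrays and the others at the close. Same-numbered arrays were read as paired for the differences within sets, since each set has its own cell state in the labels. The main fit ignored this pairing, and the set entered as a block only in an alternative. Deviations of same-numbered arrays from group means correlated with r = 0.192 across genes. Promoters are from RefSeq (GRCm38.p6). Alternatives were no filter, a percentile 60 filter, probe set averaging, each probe set on its own, 2 further normalisations, a pseudocount of 16, a variance trend with robust fitting, the set or genotype as a block, and each array left out. An exact permutation test of 2 against 2 arrays cannot give p below 0.333.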

Additional observations from a re-analysis of the deposited data

How the results depend on the processing

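In every alternative run, including each array left out, 0 of the tested members passed limma's test in either comparison. The smallest adjusted p over the alternatives was 0.122 for cKO against WT and 0.405 for set 2 against set 1, both for Trib3 with 1 array left out. The sign of the cKO minus WT difference held for each member in the alternatives that kept all 4 arrays. The run with each probe set on its own read the brightest probe set of each member again, so its sign could not turn there. On a dimmer probe set the sign was opposite for Hspa5 (-0.078) and for Pdia4 (0.13, below the limit on all 4 arrays). Of the set 2 minus set 1 differences, those of Atf4 (-0.048), Herpud1 (-0.043) and Pdia4 (-0.025) turned when a gene's probe sets were averaged, and that of Pdia4 also with a second quantile normalisation (-0.0017) and with each array centred on its median (-0.0034). With 1 array left out, cKO minus WT differences ran from -0.19 to 0.38 for Asns, -0.11 to 0.28 for Atf4, -0.036 to 0.31 for Ddit3, -0.095 to 0.27 for Hspa5 and -0.037 to 0.76 for Trib3, and set 2 minus set 1 differences from -0.060 to 0.23 for Herpud1, -0.10 to 0.13 for Pdia4, -0.74 to 0.100 for Trib3 and -0.075 to 0.28 for Xbp1; the other members kept their sign. The members' median cKO minus WT difference then ran from 0.041 to 0.27, and the median set 2 minus set 1 difference from 0.0070 to 0.22. The median cKO minus WT difference was 0.25 when cKO of set 2 was set against WT of set 1 alone, chosen after seeing the data. The median set 2 minus set 1 difference was -0.025 with probe sets averaged. The number of genes called between genotypes was 7, and it was 0 at the percentile 60 filter, 28 with a variance trend and robust fitting, 83 with the set as a replicate block, and 2 to 16 with 1 array left out. Between sets it was 0, and 1 with the genotype as a replicate block. The block changed the call of no member; among the listed genes Mthfd2 (adjusted p = 0.0305) and Hspb8 (adjusted p = 0.0405) passed only with it. With 2 arrays per group even Mthfd2, at 0.433 times WT, missed the threshold without the block, so a member that did not pass is not shown to be equal between the groups.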

Other observations

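The median size of the cKO minus WT difference, regardless of sign, was 0.30 for heat shock chaperones outside the ER and 0.16 for the ER chaperones, a difference that was not tested. Of 15 tested heat shock genes of the cytosol and mitochondria, 0 passed limma's test between genotypes, and their median difference was -0.052. Its sign turned with 1 array left out, to 0.11 when this was WT set 2 and 0.0077 when it was cKO set 2, and leaving out WT set 1 gave -0.0084. Hspb8, a small heat shock protein gene that works with Bag3 in clearing misfolded proteins, had log2 values of 10.98 and 10.96 in cKO, against 9.98 and 9.52 in WT. Its difference of 1.22 had a limma adjusted p of 0.134, and 0.0405 with the set as a block, and its other probe sets gave 0.89 and 0.70. Hspb1 had log2 values of 13.06 and 13.22 in cKO, against 12.45 and 12.50 in WT, a difference of 0.67 (limma adjusted p = 0.220). Bag3 differed by 0.40. On the other side Hsph1, a nucleotide exchange factor of Hsp70, differed by -0.47 and Hsp90aa1 by -0.41, with -0.80 on another probe set of each. On that Hsp90aa1 probe set the groups overlapped, with 10.70 and 11.70 in cKO, against 11.57 and 12.42 in WT. Its set 2 minus set 1 difference was 0.92. Hspb8 and Hspb1 were at least 1.5-fold higher in cKO within both sets, as were 3.04% of all genes tested. The WT set 2 array gave the lowest Hspb8 value and the highest Hsp90aa1 and Hsp90b1 values, and its part in these differences was not tested.

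Of 5 measured plasma cell markers, 3 were below the limit for dim genes on every array. Their summed signal of 5266 and 4409 in cKO and 4724 and 3776 in WT came mostly from Sdc1, which keratinocytes are known to express too and which had log2 values of 12.30 and 12.02 in cKO, against 12.14 and 11.75 in WT, so the sum does not measure plasma cells. Summed signal of sebaceous markers was 7451 and 7190 in cKO and 7313 and 4678 in WT, and that of melanocyte markers 368 and 378 in cKO and 257 and 346 in WT.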
